A study of Mus musculus with 20 samples.

Results

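The genes described here are S100a8, S100a9, Ngp, Lcn2, Camp, Ltf, Mmp8, Mpo and Elane, which encode proteins that neutrophils carry in their cytosol and granules. They were taken as every probe whose single gene symbol in the platform annotation was one of these 9 names. All 9 genes were on the array with 1 probe each, among 23493 probes in all, of which 18790 carried a single symbol and stood for 15252 genes. The values are the log10 ratio of RNA in the liver of 1 mouse to RNA in a pool from 4 vehicle mice, so that 0 is the level of the pool and 1 is a level 10 times as high.

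Livers of 20 mice were profiled 48 h after a hydrodynamic tail vein injection, in which a volume equal to 10% of the body weight is pushed quickly into the tail vein so that nucleic acid enters the liver. There were 4 mice in each of 5 groups. The vehicle group received Ringer's solution alone, and each of the other 4 groups received 40 ug of 1 siRNA: PPARa or PPARa-M, both against Ppara, the nuclear receptor that controls fatty acid oxidation, or GL3 or SEAP-M, controls named for reporter genes. The meaning of the suffix M and the strain, sex and age of the mice are not given in the sources used here. Every mouse, the vehicle mice included, had the injection, no uninjected mouse was analysed here, and an effect of the injection itself therefore cannot be read from these groups. The mice of a group are lettered A to D.

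Neutrophils are short-lived white blood cells that move into injured or infected tissue. S100a8 and S100a9 form the dimer calprotectin, which makes up a large part of the neutrophil cytosol and binds calcium, zinc and manganese. Ngp, Lcn2, Camp, Ltf and Mmp8 encode proteins of the specific granules, made at the later stages of neutrophil maturation. Mpo and Elane encode enzymes of the azurophil granules, whose messages are made in promyelocytes of the bone marrow and are low in mature neutrophils. Hepatocytes can also make Lcn2 in an acute phase response. In whole liver RNA, more neutrophils and more message in each cell cannot be told apart.

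The promoters of the 4 genes on which the results below turn most are shown because these genes moved together from mouse to mouse. Each line holds the 250 bases before the transcription start, 5′ to 3′ on the strand of the gene, as RefSeq gives them for GRCm38.p6. S100a8 lies at chr3:90668821-90669070 on the plus strand, S100a9 at chr3:90695722-90695971 on the minus strand, Ngp at chr9:110419558-110419807 on the plus strand and Lcn2 at chr2:32387740-32387989 on the minus strand. Capitals mark matches to TTNNGCAA on either strand (TTGCNNAA read on the other), the core bound by C/EBP factors, some of which are needed for granulocyte maturation.
S100a8: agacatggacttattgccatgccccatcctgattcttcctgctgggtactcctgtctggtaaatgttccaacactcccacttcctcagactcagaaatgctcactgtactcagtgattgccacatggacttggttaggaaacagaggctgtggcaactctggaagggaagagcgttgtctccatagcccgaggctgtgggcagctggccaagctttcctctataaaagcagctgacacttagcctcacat
S100a9: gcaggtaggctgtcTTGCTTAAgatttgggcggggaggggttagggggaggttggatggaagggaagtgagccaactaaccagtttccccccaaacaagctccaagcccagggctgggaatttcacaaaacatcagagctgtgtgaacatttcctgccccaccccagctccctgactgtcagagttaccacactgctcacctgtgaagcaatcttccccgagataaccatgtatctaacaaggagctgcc
Ngp: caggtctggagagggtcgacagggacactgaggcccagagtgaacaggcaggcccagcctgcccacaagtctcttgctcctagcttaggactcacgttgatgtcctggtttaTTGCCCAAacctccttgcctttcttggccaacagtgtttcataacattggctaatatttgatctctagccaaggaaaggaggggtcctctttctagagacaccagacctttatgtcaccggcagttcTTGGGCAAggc
Lcn2: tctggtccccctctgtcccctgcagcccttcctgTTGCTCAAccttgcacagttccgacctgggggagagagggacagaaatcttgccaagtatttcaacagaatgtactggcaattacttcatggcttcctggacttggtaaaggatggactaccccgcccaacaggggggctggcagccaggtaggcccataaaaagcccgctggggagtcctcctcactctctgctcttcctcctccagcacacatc
The motif was found in 5 of the 9 promoters. S100a9 held it 236 bases before the start, Ngp at 138 and at 11 bases, Lcn2 at 216, Ltf at 75 and Mmp8 at 19. No match lay in the same window of S100a8, Camp, Mpo or Elane. Over 32851 promoters of the reference, 9.56% held the motif. A match describes the letters and is not evidence of binding.

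The ratio was read as mouse over pool. The labels do not state this direction. The sample titles, which name the pool first, and the dyes run the same way on all 20 arrays, so the same direction was taken for all. The lower mean of Ppara in both groups given a Ppara siRNA makes mouse over pool likely, although PPARa mouse A lay above the pool, at 0.0258. The mean of the 4 Ppara probes was -0.215 ± 0.0681 (log10, SD, n = 4) with PPARa-M siRNA and -0.0736 ± 0.0681 with PPARa siRNA, against 0.0174 ± 0.0456 in vehicle mice, 0.0296 ± 0.0279 with GL3 and 0.0529 ± 0.131 with SEAP-M. Array medians lay between -0.0093 and 0.006, and the share of probes at over 1.5 times the pool ran from 0.413% to 6.9% of an array. No member had a value at the table's limit of 2 or -2.

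One liver stood apart from the other 19. In the mouse lettered D of the PPARa siRNA group, 7 of the 9 genes had their highest value of all 20 mice. That mouse also held the highest value of 9.64% of all 15252 genes. S100a8 stood at 23.7 times the pool there, Ngp at 21.2 times, Camp at 20.1 times, S100a9 at 19.4 times, Lcn2 at 9.83 times, Mmp8 at 5.14 times and Ltf at 4.53 times. Only 3 of 23493 probes had a higher ratio in that mouse than S100a8, and 4 had a higher one than Ngp. The azurophil genes did not share this: Mpo was at 1.20 times the pool and Elane at 1.16 times. Were the ratio the pool over the mouse, S100a8 would stand there at 0.0422 times the pool and every direction below would turn. The tests share 1 estimate of the spread over the 5 groups, so this mouse bears on comparisons without its group too, and each comparison is given with and without it.

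**Figure D1:**
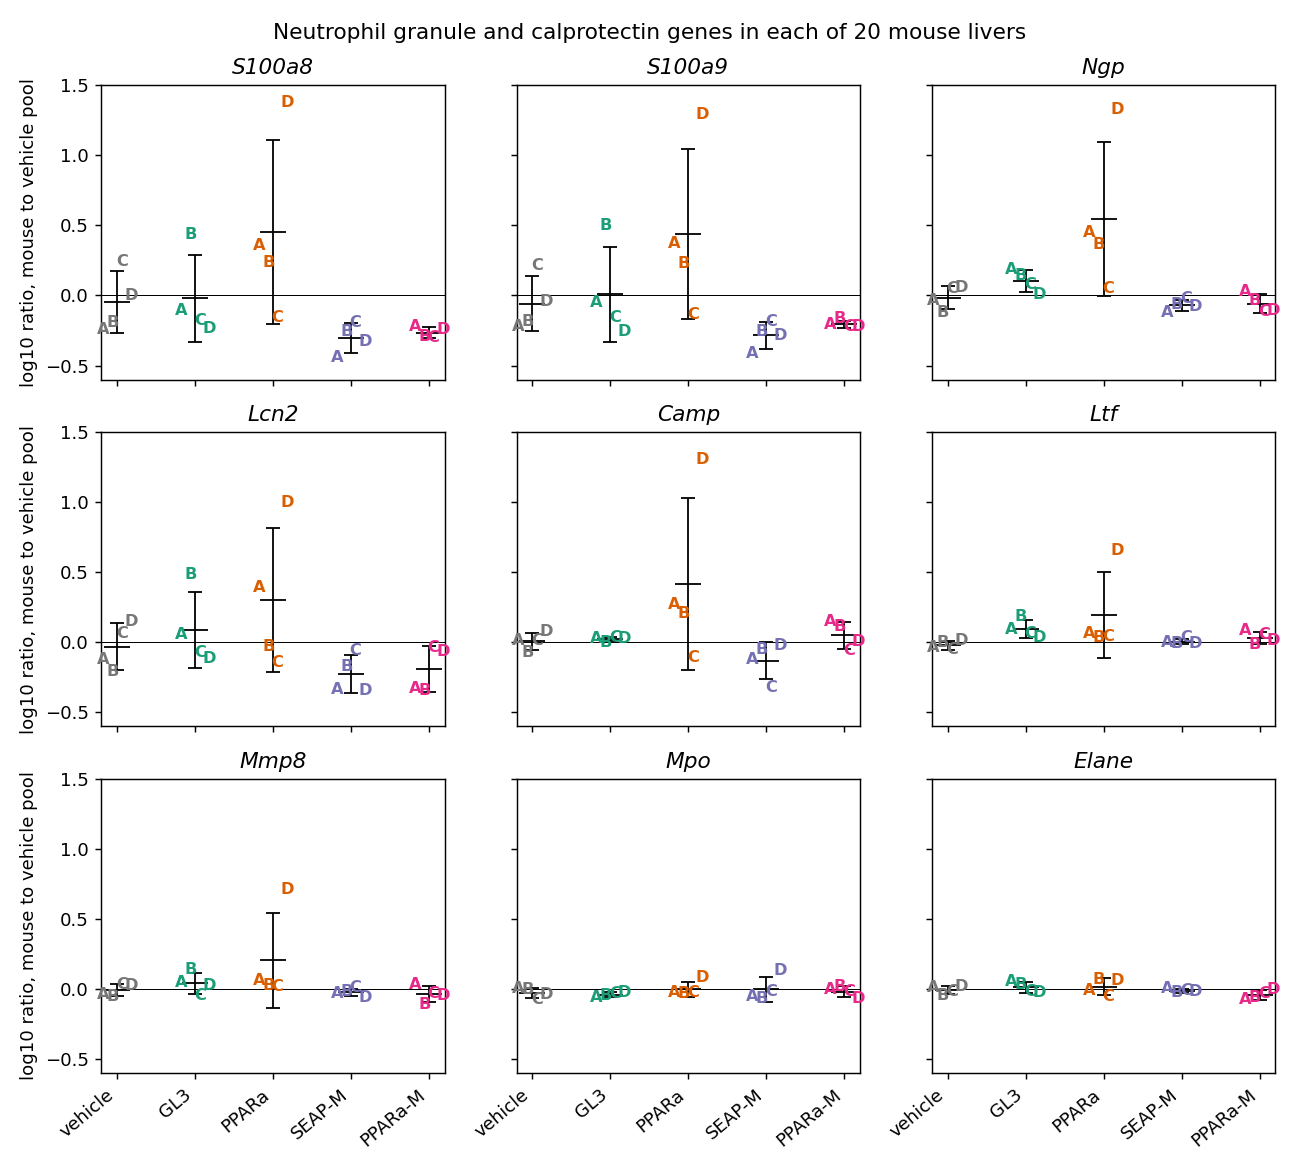
Log10 ratio of each of the 9 genes (vertical axis) in the 4 mice of each of 5 groups (horizontal axis), with the letter of the mouse as the symbol and the group mean and SD as the bar. PPARa siRNA mouse D lies far above the other 19 mice in 7 of the 9 panels, at 1.37 for S100a8 and 1.33 for Ngp, and Mpo and Elane stayed between -0.0772 and 0.131.

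S100a8, the smaller chain of calprotectin, varied widely even among mice given the same injection. The 4 vehicle mice had log10 ratios of -0.246, -0.193, 0.242 and -0.0042 (A to D), a 3.08-fold range. The GL3 mice had -0.108, 0.437, -0.18 and -0.238, and the PPARa mice 0.357, 0.233, -0.161 and 1.37. In these 3 groups some mice lay above the pool and some below it. The SEAP-M mice had -0.445, -0.26, -0.194 and -0.328, and the PPARa-M mice -0.224, -0.29, -0.301 and -0.246, so that all 8 mice given a siRNA with the suffix M were below the pool. Over the 20 mice 5 lay above the pool and 15 below. Group means in ascending order were -0.307 ± 0.107 for SEAP-M, -0.265 ± 0.0364 for PPARa-M, -0.0503 ± 0.221 for vehicle, -0.0223 ± 0.311 for GL3 and 0.451 ± 0.655 for PPARa (log10, SD, n = 4), and neighbours in this order differed by less than the larger of their SDs. The SD among vehicle mice was exceeded by 0.421% of all probes, and the SD among PPARa siRNA mice by 0.0426%. Among PPARa-M mice, by contrast, 65.5% of probes varied more than S100a8.

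S100a9, which lies beside S100a8 on chromosome 3 and encodes the other chain, followed it closely. The vehicle mice had log10 ratios of -0.221, -0.184, 0.213 and -0.0437 (A to D) and the GL3 mice -0.0522, 0.5, -0.157 and -0.255. The PPARa mice had 0.37, 0.227, -0.134 and 1.29. The order of mice within each of these groups was that of S100a8, with mouse C highest among vehicle mice, B among GL3 mice and D among PPARa mice. The SEAP-M mice lay between -0.411 and -0.188 and the PPARa-M mice between -0.223 and -0.168, again all below the pool. Across 20 mice the Pearson correlation of S100a8 with S100a9 was 0.996 and Spearman's rho was 0.941, each with a permutation p of 1e-05, the smallest that 100000 permutations can give, and adjusted p of 6e-05 and 0.00018 over the 36 pairs of the 9 genes. Without GL3 mouse B and PPARa mouse D, the 2 mice farthest from the median of S100a8, r was 0.986, and with each group's mean removed it was 0.994.

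Ngp, neutrophilic granule protein, set the PPARa siRNA group apart more clearly than calprotectin did. Its log10 ratios were 0.448, 0.364, 0.047 and 1.33 in PPARa mice A to D, all above the pool. GL3 mice had 0.187, 0.143, 0.0739 and 0.0063, and vehicle mice -0.0394, -0.123, 0.0454 and 0.0537. PPARa mice A and B were above every mouse of the other groups, while PPARa mouse C lay within the vehicle and GL3 ranges. SEAP-M mice lay between -0.12 and -0.0209, and PPARa-M mice had 0.0277, -0.0359, -0.117 and -0.11. Without mouse D the PPARa mean was 0.286 ± 0.212 (SD, n = 3), against 0.103 ± 0.0793 in GL3 mice.

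Lcn2, lipocalin 2, which withholds iron from bacteria by binding their siderophores, resembled calprotectin. Its values in PPARa mice A to D were 0.391, -0.0287, -0.145 and 0.993, and in GL3 mice 0.0582, 0.48, -0.0737 and -0.114. Vehicle mice had -0.126, -0.21, 0.061 and 0.151. As for calprotectin, GL3 mouse B stood next after PPARa mouse D, and all 8 mice given a siRNA with the suffix M were below the pool, between -0.343 and -0.0364.

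Camp, the precursor of the antimicrobial peptide cathelicidin, was high in the PPARa mice that were high in Ngp and was not high in the GL3 mouse that was high in calprotectin. Its PPARa values were 0.272, 0.204, -0.112 and 1.3 in mice A to D. In GL3 mice it stayed between 0.0007 and 0.0352, and GL3 mouse B, with S100a9 at 3.16 times the pool, had the lowest Camp value of that group. Vehicle mice lay between -0.0706 and 0.0771, PPARa-M mice between -0.0618 and 0.145, and SEAP-M mice between -0.32 and -0.0206. GL3 mouse B was thus high in S100a8, S100a9 and Lcn2 and not in Camp, whereas PPARa mice A and B were high in Ngp and Camp as well as in calprotectin.

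Ltf, lactoferrin, and Mmp8, neutrophil collagenase, moved far from the pool in PPARa mouse D alone, at 0.656 and 0.711. In the other 19 mice Ltf lay between -0.0546 and 0.184 and Mmp8 between -0.107 and 0.139, with GL3 mouse B at the top of both. For both genes the other 3 PPARa mice were close together, at 0.033 to 0.0592 for Ltf and 0.0214 to 0.0595 for Mmp8. Mpo, myeloperoxidase, ran from -0.0772 to 0.131 over the 20 mice and was highest in SEAP-M mouse D. Elane, neutrophil elastase, ran from -0.0757 to 0.0689, and its highest mouse was PPARa mouse B. Neither gene had an unusual spread among vehicle mice, where 50.6% of all probes varied more than Mpo and 65.5% more than Elane. In the other groups the share that varied more ran from 11.1% (SEAP-M) to 86.9% (GL3) for Mpo and from 28.9% (PPARa) to 93.4% (SEAP-M) for Elane.

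The calprotectin and specific granule genes varied together across the mice. Among the 7 calprotectin and specific granule genes, all 21 pairs had Pearson correlations between 0.745 and 0.996, and 21 passed an adjusted p of 0.05 by r and 16 by rho, by permutation over 20 mice. The group means contribute to these values, and with them removed r lay between 0.68 and 0.994. Much of it rested on PPARa mouse D, since without that mouse the range was 0.127 to 0.988. S100a8 with Ngp kept r = 0.786 and S100a8 with Lcn2 0.853 without it, while S100a8 with Ltf fell from 0.844 to 0.419, and to 0.0786 without GL3 mouse B too. Of the 15 pairs that hold Mpo or Elane, 6 passed by r and 1 by rho. All 6 were pairs of Elane with these genes other than Camp (r between 0.472 and 0.622, and between 0.261 and 0.514 without PPARa mouse D), and Lcn2 was the gene that passed with it by rho (0.635, adjusted p 0.01). Mpo passed with none of the other genes, and its r with Elane was -0.0357. None of the 9 genes passed a correlation with Ppara (r between -0.24 and 0.328, lowest adjusted p 0.599).

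**Figure D2:**
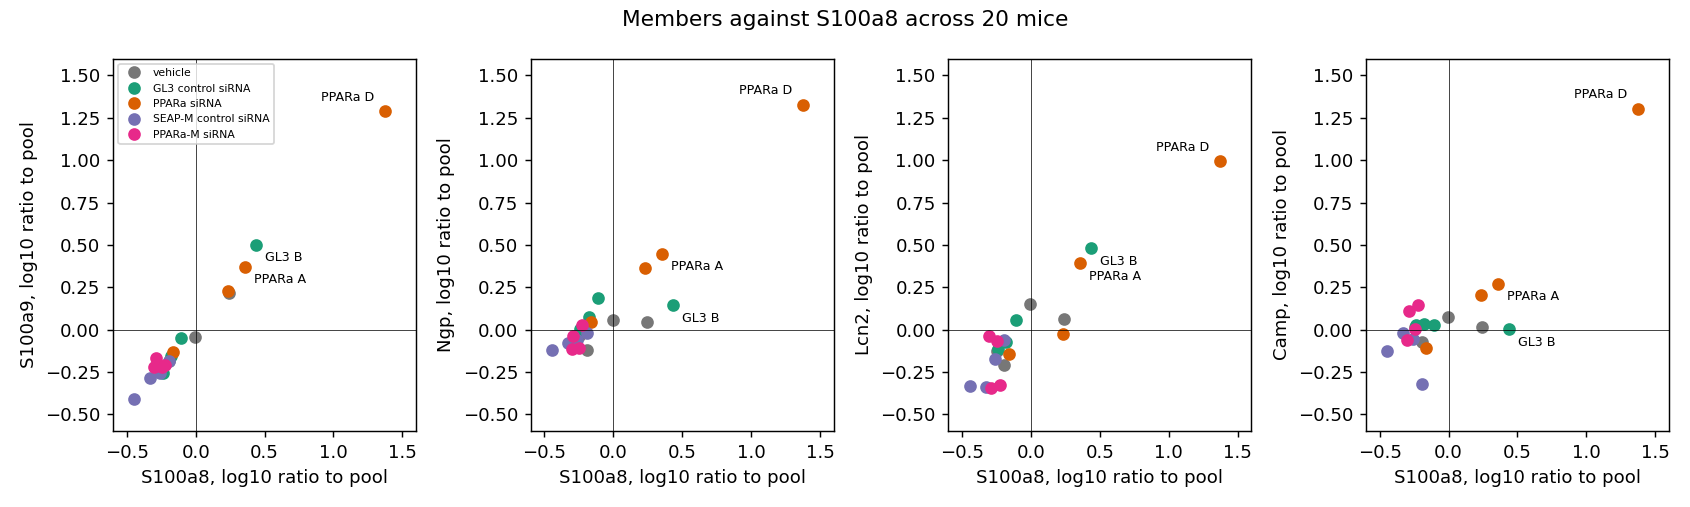
Log10 ratio of S100a9, Ngp, Lcn2 and Camp (vertical axes) against that of S100a8 (horizontal axis), 1 point per mouse, coloured by group. S100a9 lies on a line through all 20 mice (r = 0.996), while GL3 mouse B, at 0.437 for S100a8, lies near 0 for Camp.

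The comparison of each Ppara siRNA with a control siRNA asks whether the genes moved with Ppara knockdown. For PPARa-M against SEAP-M siRNA, limma called 0 of the 9 genes at an adjusted p under 0.05, where 2.69% of all probes were called, and 0 at an unadjusted p under 0.05, where 18.6% were. Calprotectin was low in both of these groups: the log2 difference was 0.14 for S100a8 (95% interval -1.41 to 1.69) and 0.27 for S100a9 (-1.20 to 1.74). Both intervals reach past 1 log2 unit in either direction. They rest on the spread pooled over the 5 groups, and without PPARa mouse D, which is in neither of these 2 groups, the interval of S100a8 was -0.81 to 1.09. The greatest difference was that of Camp, at 0.60 (-0.69 to 1.89, adjusted p 0.644). Without that mouse it had an SE of 0.24 (adjusted p 0.183) and was the 1 gene of 9 with an unadjusted p under 0.05, against 19.4% of probes. The narrowest intervals over the 20 mice were those of Elane, -0.10 (-0.29 to 0.09), and Mpo, -0.05 (-0.31 to 0.20).

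For PPARa against GL3 siRNA all 9 differences were positive, with a median of 0.71 on the log2 scale against 0.01 over all probes, and none passed the adjusted threshold (0.0809% of probes were called higher). Ngp differed by 1.47 (SE 0.55, adjusted p 0.694), S100a8 by 1.57 (SE 0.74, adjusted p 0.863) and Camp by 1.31 (SE 0.62, adjusted p 0.863). These 3 had an unadjusted p under 0.05, as had 2.25% of probes in that direction. PPARa mouse D decided much of the size. Without it Ngp differed by 0.61, S100a8 by 0.55 and Camp by 0.33, and Lcn2, Ltf, Mmp8 and Elane turned to -0.05, -0.17, -0.02 and -0.03. Ngp was then the 1 gene with an unadjusted p under 0.05, against 2.53% of probes higher. With both Ppara siRNAs against both controls, 0 of 9 genes passed (0.255% of probes did), and Camp had the lowest adjusted p, 0.434 (log2 difference 0.96, SE 0.44). Camp was also the 1 gene of 9 with an unadjusted p under 0.05, against 10.9% of probes, and was so without PPARa mouse D too (0.47, SE 0.18, adjusted p 0.344), against 11.2%. The test of whether the 2 Ppara siRNA effects differed called 0 of 9 genes (1.67% of probes), with 0 at an unadjusted p under 0.05 (13% of probes). Ngp came closest there, at -1.43 (SE 0.77, adjusted p 0.458). Without PPARa mouse D it was at -0.57 (SE 0.33, adjusted p 0.449), and Lcn2, Camp and Ltf turned from -0.60, -0.71 and -0.25 to 0.16, 0.27 and 0.26, again with 0 of 9 at an unadjusted p under 0.05 (14.6% of probes).

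The 2 Ppara siRNAs compared directly gave 2 calls among these genes, and neither call held in every fit. S100a8 was 5.2 times lower with PPARa-M than with PPARa siRNA (log2 difference -2.38, SE 0.74, limma adjusted p 0.0476), and Ngp 4.03 times lower (-2.01, SE 0.55, adjusted p 0.0249). These 2 of 9 genes fell and 0 rose, where 4.12% of all probes were called lower and 6.04% higher. S100a9 came next with -2.14 (SE 0.70, adjusted p 0.0611), then Lcn2 with -1.65 (SE 0.62, adjusted p 0.0997). At an unadjusted p under 0.05, 6 of 9 genes were lower, against 12.9% of probes. Without PPARa mouse D the count was 3 of 9 (S100a8, S100a9 and Ngp), and the share of probes was not taken for that fit. The values of S100a8, S100a9 and Ngp in the 4 PPARa-M mice were all below those in the 4 PPARa mice, an arrangement that 7.21% of probes showed. Mpo differed by -0.06 (95% interval -0.31 to 0.20).

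Both calls were lost when only the 2 groups compared were fitted (adjusted p 0.196 for S100a8 and 0.195 for Ngp) and with array weights (0.151 and 0.0568). That of S100a8 was also lost with arrays centred on their median (0.0521), scaled (0.158) or quantile normalized (0.154), with 1 value per gene (0.0509) and with the replicate block (0.0609). The calls depended on single mice as well. Without PPARa mouse D, Ngp was still called, at -1.15 (SE 0.24, adjusted p 0.00763), and S100a8 was not, at -1.35 (SE 0.49, adjusted p 0.1), where 3.12% of probes were called lower. S100a8 kept its call in 3 of the 20 fits that left out 1 mouse (without vehicle C, PPARa C or GL3 B) and Ngp in 18, with adjusted p of 0.0511 without PPARa-M mouse C and 0.0509 without PPARa-M mouse D. Without PPARa mouse C, the lowest of its group in calprotectin, 4 genes were called. The share of all probes called in that fit was not taken, so this count has nothing to be read against.

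**Figure D3:**
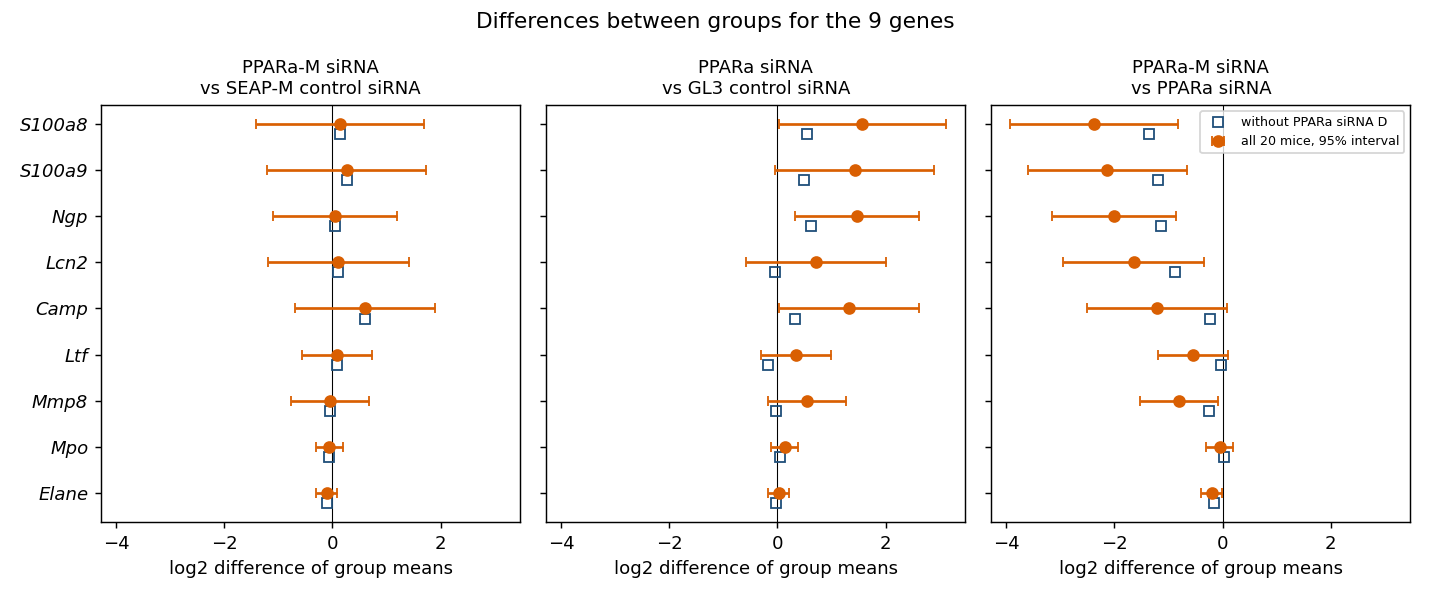
Log2 difference of group means (horizontal axis) for the 9 genes (vertical axis) in 3 comparisons, with the 95% interval of the fit over 20 mice (filled circles) and the value without PPARa siRNA mouse D (open squares). Between PPARa-M and SEAP-M siRNA the differences ran from -0.10 to 0.60, and leaving out mouse D moved every calprotectin and specific granule difference of the PPARa siRNA group toward 0 or past it.

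Against vehicle, 0 of the 9 genes were called for any siRNA. For PPARa siRNA all 9 differences were positive, and 8 were without PPARa mouse D. With all mice the median was 1.11 on the log2 scale, against 0.006 over all probes. Of the 9, 5 had an unadjusted p under 0.05, against 2.46% of probes in that direction (0.0809% were called higher after adjustment). Ngp led with 1.87 (SE 0.55, adjusted p 0.333), and 1.00 (SE 0.24, adjusted p 0.226) without PPARa mouse D, where it was the 1 gene with an unadjusted p under 0.05, against 2.17% of probes higher. Ltf was higher in each PPARa mouse than in any vehicle mouse, as were 1.61% of probes, with a log2 difference of 0.72 (SE 0.31, adjusted p 0.738) and of 0.21 without mouse D. For PPARa-M siRNA, where 6.83% of probes were called, S100a8 differed from vehicle by -0.71 (SE 0.74, adjusted p 0.611). For SEAP-M siRNA, where 0.00426% were called, it differed by -0.85 (SE 0.74, adjusted p 0.956). For GL3 siRNA, where 0.00851% were called, it differed by 0.09 (SE 0.74, adjusted p 1.00). In these 3 comparisons 0 of 9 genes had an unadjusted p under 0.05, against 23.3%, 5.58% and 2.73% of probes in the same order. Without PPARa mouse D the counts were 0 for PPARa-M (24% of probes), 0 for SEAP-M (6.28%) and 1 for GL3 (3.06%), where Ltf was higher by 0.38 with an SE of 0.09 in place of 0.31 and an adjusted p of 1.00. All 4 siRNA groups together against vehicle likewise gave 0 calls (0.00851% of probes) and 0 at an unadjusted p under 0.05 (4.97%). Without that mouse Ltf had an unadjusted p under 0.05 (0.21, SE 0.08, adjusted p 0.847), against 5.55% of probes, and S100a8 moved from 0.05 to -0.21. The vehicle mice may be those of the pool, which the labels do not settle.

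The control siRNAs were also compared with each other. With SEAP-M, S100a8 differed from GL3 by -0.94 (SE 0.74, adjusted p 0.75), S100a9 by -0.98 (SE 0.70, adjusted p 0.708) and Lcn2 by -1.05 (SE 0.62, adjusted p 0.623). Of the 9 genes 0 were called, as were 0% of all probes, and 0 had an unadjusted p under 0.05, against 10% of probes. That last count depended on PPARa mouse D, which is in neither group. Without it 4 of 9 genes, S100a9, Ngp, Lcn2 and Ltf, were lower with SEAP-M at an unadjusted p under 0.05, against 10.7% of probes in either direction, and the lowest adjusted p was 0.231. Since the low calprotectin values of both groups with the suffix M were seen first, the 8 mice of those groups are set beside the 8 mice given PPARa or GL3 siRNA as a description, with no test. The log2 difference of their means was -1.66 for S100a8, -1.56 for S100a9, -1.35 for Lcn2 and -1.29 for Ngp, and -1.15, -1.09, -0.97 and -0.86 without PPARa mouse D. The F test over all 5 groups called 0 of 9 genes (6.6% of probes), with 3 at an unadjusted p under 0.05 (22% of probes) and a lowest adjusted p of 0.0793. Without PPARa mouse D it called 1, Ngp (adjusted p 0.0238), and 5.6% of probes.

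Other neutrophil genes were read from lists chosen for this description. The counts below stand beside the shares of PPARa mouse D over the whole array. There, 9.64% of all genes had their highest value of 20 mice and 2.18% of probes were over 1.5 times the pool. Of 10 other granule protein genes on the array, 6 had their highest value of 20 mice in PPARa mouse D and 5 were over 1.5 times the pool there. Cd177, a surface and granule membrane protein of neutrophils, was at 6.16 times the pool in that mouse and between -0.104 and 0.0974 (log10) in the other 19. Prtn3, proteinase 3, was at 4.08 times, Chil3 at 2.51 times and Mmp9, gelatinase B, at 2.14 times. Prtn3 is an azurophil enzyme like Mpo and Elane, yet unlike them it was high in this mouse, and it was next highest in GL3 mouse B, at 0.27. Of 23 neutrophil surface, enzyme and cytosol markers, 14 were highest in PPARa mouse D and 12 were over 1.5 times the pool, among them Stfa3 at 3.09 times and Clec4e, a receptor for damaged cells and mycobacteria, at 2.37 times. Itgb2l and Cybb, a subunit of the NADPH oxidase, were not highest there, at 0.909 and 1.20 times the pool. In PPARa-M against PPARa siRNA, 1 of 12 probes of the granule list was called lower, a probe of Mmp9, and 0 of 28 of the surface list. Of all probes, 4.12% were called lower in this comparison. Without mouse D the granule list had 0, and 3.12% of all probes were called lower.

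Genes of other kinds in the same mouse differed in how far they moved. Its shares over the array again stand beside the counts: 9.64% of genes highest and 2.18% of probes over 1.5 times the pool. Of 22 acute phase genes, which hepatocytes switch on in inflammation, 16 were highest in PPARa mouse D and 17 were over 1.5 times the pool, with Orm2 at 17.0 times and Saa2 at 4.69 times. Their mean log10 ratio was 0.416 there and between -0.15 and 0.109 in the other 19 mice. Of 19 attractants and growth factors of neutrophils, 5 were highest in that mouse. Cxcl1, a chemokine that draws neutrophils, was at 5.25 times the pool, and Il6 (mean of 5 probes) at 1.66 times. Of 20 monocyte and macrophage markers, 5 were highest in mouse D and 1 was over 1.5 times the pool. None of 16 lymphocyte markers was highest in it, and their mean was -0.0311, within the -0.0568 to 0.0658 of the other mice. Of 17 skeletal muscle genes, listed after the data were seen, 4 were highest in mouse D and 9 were over 1.5 times the pool. None of 11 hepatocyte markers and none of 24 interferon-stimulated genes was highest there either. The mean log10 ratio of the hepatocyte markers lay between -0.0793 and -0.0488 in the PPARa mice. All of them were below every mouse of the other groups, where the lowest was -0.0336, with GL3. The part of any of these in the values of the 9 genes was not tested.

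**Figure D4:**
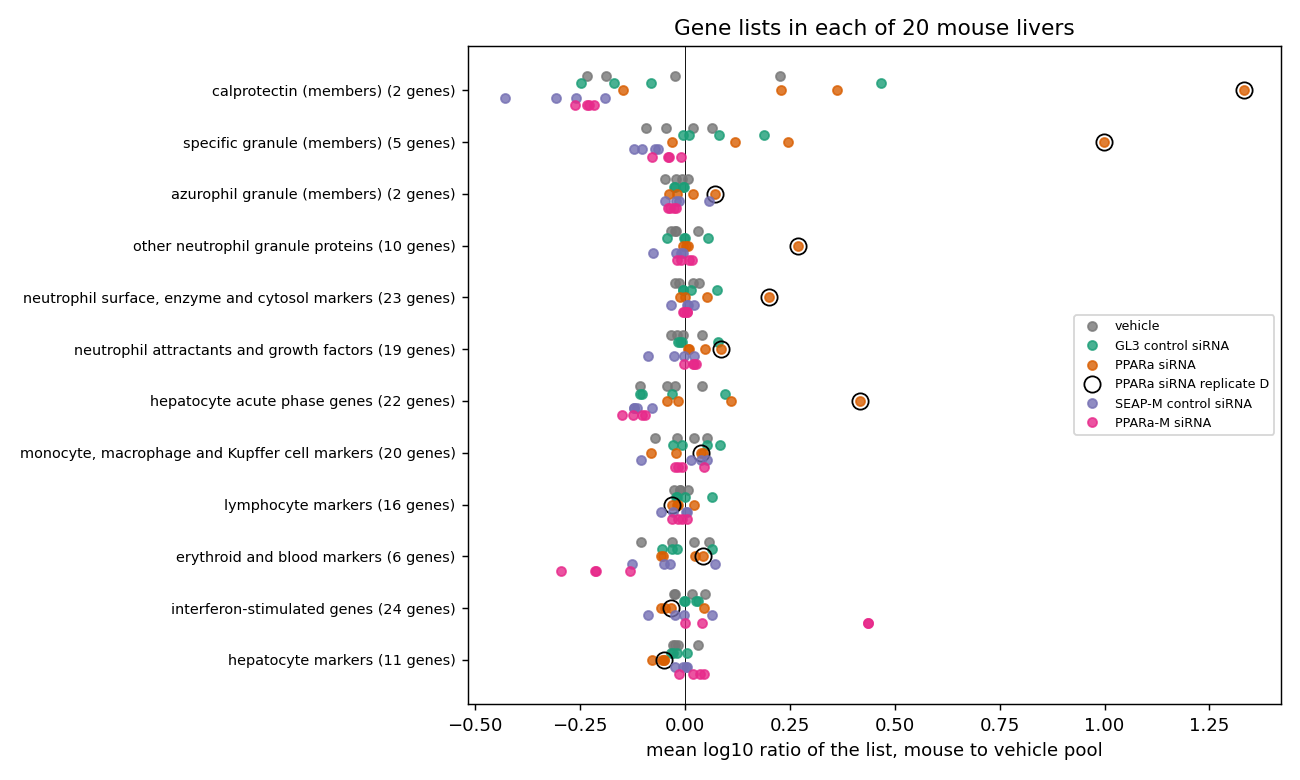
Mean log10 ratio to the vehicle pool (horizontal axis) of 12 gene lists (vertical axis) in each of 20 mice, 1 point per mouse, coloured by group, with PPARa siRNA mouse D circled. Mouse D lies apart in the calprotectin (1.33), specific granule (0.998), other granule, surface and acute phase (0.416) lists and within the other mice in the macrophage and lymphocyte lists. In the hepatocyte list all PPARa siRNA mice, mouse D included, lie below every mouse of the other groups, at -0.0793 to -0.0488.

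Between PPARa-M and PPARa siRNA, 10.2% of all probes were called, and the lists are read beside that share. Of 30 probes for attractants 2 were called lower and 1 higher, a share like that of all probes. Cxcl1 fell (log2 difference -1.84, SE 0.43, adjusted p 0.0108), as did Ppbp, a platelet chemokine (-0.43, SE 0.10, adjusted p 0.0119), and Ccl4 rose (0.52, SE 0.16, adjusted p 0.0409). Without PPARa mouse D, 2 probes were lower and 0 higher, so that the call of Ccl4 was lost. Of 32 acute phase probes, 8 were called lower and 0 higher, with a median of -0.83 against -0.03 over all probes, and 7 were lower without PPARa mouse D. Among 8 erythroid probes 4 were lower (2 without mouse D), and among 25 probes of interferon-stimulated genes 9 were higher (6 without mouse D). The macrophage list had 1 of 25 probes higher and 2 lower (1 and 0 without mouse D), and the lymphocyte list 0 of 16. In the fit without mouse D, 5 of 20 probes of the hepatocyte list were higher and 0 lower. The erythroid mean was -0.213 ± 0.0674 in PPARa-M mice and -0.0104 ± 0.0515 in PPARa mice (log10, SD, n = 4). Whether blood left in the liver bears on the neutrophil genes was not tested.

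The other S100 genes did not vary as calprotectin did. Of 13 on the array, 2 were highest in PPARa mouse D and 1, S100a6, was over 1.5 times the pool there, at 1.64 times. Over the whole array these shares were 9.64% of genes and 2.18% of probes. S100g, the calcium-binding protein calbindin-D9k, was the 1 of 14 S100 probes called in PPARa-M against PPARa siRNA, and it was higher (1.63, SE 0.38, adjusted p 0.0109). Of 17 probes for 7 receptors and receptor partners of calprotectin, 1 was called, Bsg, basigin, which was lower (-0.48, SE 0.10, adjusted p 0.00502). Neither count exceeded the share of all probes called in this comparison, 10.2%. Cd14, a co-receptor of Tlr4, was at 1.58 times the pool in PPARa mouse D and Tlr4 at 1.10 times.

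Across the 20 mice the genes whose values were most like the mean of S100a8 and S100a9, of 15243 genes compared, were Mmp9 (r = 0.955), Prtn3 (0.946), Cpne8 (0.937), Slc13a5 (0.934), Prg4 (0.932), Tspan4 (0.917), Dnajc12 (0.91), Steap4 (0.904), Tmprss2 (0.897) and Orm2 (0.893). PPARa mouse D weighs heavily in these values. Without it the list opened with Pirb, an inhibitory receptor of myeloid cells (0.88), Mmp9 (0.869) and Atp11a (0.855), and 6 of the 10 genes were shared. Mmp9 and Prtn3 were thus among the most alike with and without that mouse, at 2.14 and 4.08 times the pool in it and at 0.115 and 0.27 (log10) in GL3 mouse B.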

How the data were processed

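Custom 2-colour oligonucleotide arrays measured RNA of each of 20 livers beside the vehicle pool (4 mice), with the dyes in the same order on every array. The authors deposited log10 ratios for 23493 probes, held within 2 and -2, and how they were normalized is not given in the sources used here. The log base was read from the range of the values, and the likely direction from the level of Ppara, with titles and dyes alike on all arrays. The files hold no intensities, so signal over background is unknown, and the number of arrays limits the precision. Scan dates and other batches are not given in the sources used here.

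The log10 ratios as deposited were converted to log2 and fitted in R 4.3.3 with limma 3.58.1 (lmFit, eBayes), 1 mean per group over 20 arrays, with 11 comparisons and an F test. P-values were adjusted by Benjamini-Hochberg over all probes, with a threshold of 0.05, and the code was tested on simulated data. Nothing says whether the mice of a group were handled separately, so p-values measure the spread between these mice. Correlations used 100000 two-sided permutations (Python 3.11.15, numpy 2.4.6, scipy 1.17.1, pandas 2.3.3), and figures matplotlib 3.10.9.

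Gene symbols are those of the platform annotation, and all 9 members matched the GRCm38.p6 gene table by Entrez ID. The 4638 probes without a symbol and the 65 with several were tested and not named. The members, gene lists and comparisons were chosen with earlier results of these data known. Beside the members, the text names up to 4 genes of each list by the smallest p of the F test and the 10 genes most alike to calprotectin. Pirb and Atp11a come from the same ranking without PPARa D. The alternatives were centring, scaling or quantile normalization of arrays, array weights, robust moderation, 1 value per gene, values at the limit left out, a fit of the compared groups only, a replicate block, a threshold of 0.01 and each mouse left out. Leaving out PPARa D with GL3 B, the shares of probes without PPARa D and the grouping by suffix, which has no test, were added after seeing the data. The study's text speaks of more vehicle profiles than the 4 analysed here.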

Additional observations from a re-analysis of the deposited data

Results flagged for a closer look

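In 3 cases a value lay far from the other 3 mice of its group, all in PPARa siRNA mouse D. Ltf stood at 0.6562 (log10 ratio) against 0.033 to 0.0592, Mmp8 at 0.7113 against 0.0214 to 0.0595, and Mpo at 0.0801 against -0.0314 to -0.0248. The gap to the next mouse was between 0.941 and 0.958 of the range of the 4 mice. The 45 groups of 4 values (9 genes in 5 groups) were examined, and chance alone flags about 1 in 20. Calprotectin, Ngp, Lcn2 and Camp, with higher ratios in the same mouse, were not flagged, since the other 3 PPARa mice were themselves spread.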

How the results depend on the processing

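Of the comparisons of the 9 genes, those that gave 0 calls gave 0 under every alternative run, except the F test. For PPARa-M against PPARa siRNA the count of 2 became 1 (Ngp) with arrays centred on their median, with quantile normalization, with arrays scaled to one interquartile range, with 1 value per gene and with the replicate block. It became 0 with array weights, with only the compared groups in the fit and at an adjusted p under 0.01, and ran from 0 to 4 when 1 mouse was left out. S100a8 had an adjusted p of 0.0521 with centring and 0.158 with scaling. The F test count of 0 became 1 without PPARa D and GL3 B and ran from 0 to 1 without 1 mouse, with 1 without PPARa C or PPARa D. For PPARa against GL3 siRNA, the log2 differences of Lcn2, Ltf, Mmp8 and Elane reversed when PPARa D was left out. That of Elane went from 0.02 to -0.03. The range without 1 mouse was -0.0505 to 1.21 for Lcn2, -0.167 to 0.523 for Ltf and -0.0206 to 0.743 for Mmp8. Without PPARa D and GL3 B, Ltf was -0.0679, and in PPARa-M against PPARa siRNA S100a8 was called again, at -1.35 (adjusted p 0.038). The cause of these changes was not tested.

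The letters A to D were not taken to pair the mice, since they are not stated to mark a shared batch. The correlations that follow do not settle whether they do. The 40 pairs of same-lettered mice had a median correlation of -0.018 (-0.2 to 0.312), 13 of them over 0.1 against 20 of 120 pairs of other letters, and 10 of 20 arrays correlated best with their own letter. Beyond the count given above for PPARa-M against PPARa siRNA, the replicate block changed no count of calls among the 9 genes. Scaling moved array medians by at most 0.0309 (log2). Each gene rests on 1 probe.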

Other observations

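Skeletal muscle genes, listed after the data were seen, were above the pool in several livers. The mean log10 ratio of 17 such genes was 0.25 in PPARa siRNA mouse D, 0.257 in GL3 mouse A and 0.191 in GL3 mouse B, and lay between -0.0463 and 0.0649 in vehicle mice. Acta1, skeletal muscle actin, chosen after its values were seen, was at 9.47 times the pool in PPARa mouse D and at 0.853 (log10) in GL3 mouse A, where S100a8 was at -0.108. Interferon-stimulated genes showed another split within a group: their mean reached 0.436 in the PPARa-M group and was -0.000731 in its lowest mouse, while S100a8 in these mice ran from -0.301 to -0.224.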
